A study of Mus musculus with 12 samples.

Results

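Cell cycle and DNA replication genes were followed in sorted mouse lung phagocytes as a set of 35 genes listed by symbol, from the G1/S cyclins and the replicative helicase to the spindle, kinetochore and midbody. All 35 were found among the 26608 genes of the count files, and all 35 had enough counts in enough libraries, of any group, to enter the test. The list names its members by symbol and uses no measured value, but it was drawn up with earlier results of these data known. The study asked what loss of Hif1a, which encodes the HIF-1 subunit that is stabilised at low oxygen, changes in lung macrophages and monocytes of hypoxic mice.

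The libraries fall into 4 groups of 3, each from about 250 sorted cells of C57Bl/6 mice. CrePos IM holds interstitial macrophages, which lie in the lung tissue around airways and vessels, from Cx3cr1cre;Hif1α Δ/Δ animals, and CreNeg IM holds the same cells from Hif1α flox/flox animals, which carry the floxed alleles without Cre. CrePos RM and CreNeg RM are the corresponding groups labelled as nonclassical monocytes, the monocytes that patrol the vessel wall. Every animal, controls included, had spent 3 weeks in hypoxia with a weekly dose of SU5416, an inhibitor of VEGF receptors, so no normoxic or untreated cells were measured. Cre was driven by Cx3cr1, a fractalkine receptor gene active in monocytes and many macrophages, and an effect of Cre or of a lost Cx3cr1 copy cannot be told apart from an effect of the Hif1a deletion. Library numbers recur between IM and RM, but nothing in the labels says that they mark separate animals, so p-values measure the spread between these libraries, which may be in part technical.

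A dividing cell makes these messages in waves. Around the G1/S boundary E2F factors switch on cyclin E, the MCM subunits that unwind DNA and the enzymes that supply nucleotides. Toward G2 and M the DREAM complex gives way to complexes of MuvB with B-Myb and FOXM1. These act at promoters of mitotic genes, which often hold CHR and CCAAT elements. Most tissue macrophages and circulating nonclassical monocytes divide rarely, so these messages are usually scarce in them. In RNA from pooled cells, fewer cycling cells and less RNA per cycling cell cannot be told apart.

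Promoters are shown for the 5 members on which the results below turn: Mki67 and Tyms, the only members past the test in the fit over all 12 libraries, Cdk1 and Plk1, which were nearly absent from CrePos RM libraries, and Mcm6, the helicase subunit whose genotype groups did not overlap in either cell type. Each sequence is the RefSeq window of GRCm38.p6 from 250 bases before to 50 after the start, 5′ to 3′ on the gene's strand, with capitals marking E2F letters (TTTCCCGC, TTTGGCGC, TTTCGCGC or TTTGCCGC), CHR letters (TTTGAA) and the letters of the CCAAT box on either strand. In Mcm6 the first run of capitals is a pair of overlapping E2F matches.
Mki67 (chr7:135716330-135716629, minus strand): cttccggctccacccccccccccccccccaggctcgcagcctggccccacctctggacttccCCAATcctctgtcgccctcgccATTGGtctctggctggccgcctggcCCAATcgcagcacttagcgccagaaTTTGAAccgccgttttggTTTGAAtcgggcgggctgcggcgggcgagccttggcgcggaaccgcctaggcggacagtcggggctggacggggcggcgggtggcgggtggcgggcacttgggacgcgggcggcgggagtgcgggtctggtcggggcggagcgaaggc
Cdk1 (chr10:69352863-69353162, minus strand): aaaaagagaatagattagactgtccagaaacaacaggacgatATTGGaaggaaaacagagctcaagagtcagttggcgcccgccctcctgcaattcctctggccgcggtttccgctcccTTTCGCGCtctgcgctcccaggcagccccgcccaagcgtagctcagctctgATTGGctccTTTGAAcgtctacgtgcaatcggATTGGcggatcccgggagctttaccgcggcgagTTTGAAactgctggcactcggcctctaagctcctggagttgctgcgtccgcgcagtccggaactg
Plk1 (chr7:122159185-122159484, plus strand): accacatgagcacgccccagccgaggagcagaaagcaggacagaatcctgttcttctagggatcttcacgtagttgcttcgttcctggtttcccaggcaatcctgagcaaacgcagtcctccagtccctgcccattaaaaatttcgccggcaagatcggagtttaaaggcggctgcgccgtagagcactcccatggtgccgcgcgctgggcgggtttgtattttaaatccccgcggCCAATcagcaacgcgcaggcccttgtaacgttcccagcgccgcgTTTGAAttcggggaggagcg
Mcm6 (chr1:128359656-128359955, minus strand): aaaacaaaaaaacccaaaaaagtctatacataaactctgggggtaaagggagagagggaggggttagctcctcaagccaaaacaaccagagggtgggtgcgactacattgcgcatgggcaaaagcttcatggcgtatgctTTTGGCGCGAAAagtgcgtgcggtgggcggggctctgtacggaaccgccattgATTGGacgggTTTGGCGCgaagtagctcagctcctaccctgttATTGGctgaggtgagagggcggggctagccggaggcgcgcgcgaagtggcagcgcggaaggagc
Tyms (chr5:30073576-30073875, minus strand): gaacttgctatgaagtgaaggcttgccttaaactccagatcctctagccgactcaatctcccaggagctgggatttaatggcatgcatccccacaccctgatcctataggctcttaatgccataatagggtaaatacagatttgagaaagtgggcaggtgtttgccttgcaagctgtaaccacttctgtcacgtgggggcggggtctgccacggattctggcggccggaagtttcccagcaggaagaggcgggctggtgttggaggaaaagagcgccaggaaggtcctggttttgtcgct

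A window was at hand for 29 of the 35 members. CHR letters were in 14 of these 29 windows (48.3%), against 20.2% of the windows of all 27025 genes, and CCAAT letters were in 24 (82.8%), against 41.1% of all genes. E2F letters were in 5 (17.2%), against 2.60% of all genes. The split followed the members' roles: CHR letters were in 13 of 18 mitotic members and in 1 of 11 replication members, while E2F letters were in 1 of 18 mitotic members (Cdk1) and in 4 of 11 replication members, all of them MCM subunits. Tyms and Tk1, the thymidylate enzymes, held none of these letters in this window, and neither did Ccne1, Birc5 and Nusap1. These matches describe the sequence and show no binding.

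Hif1a itself (chr12:73901375-73947530) was counted in every library. It had 192, 204 and 200.01 CPM in CrePos IM, against 231, 212 and 243 CPM in CreNeg IM, and 154, 212 and 150.3 CPM in CrePos RM, against 246, 221 and 207 CPM in CreNeg RM, where CPM is the count scaled by library size with TMM factors. The IM groups did not overlap and the RM groups did, and Hif1a did not pass edgeR's quasi-likelihood test (log2 fold change -0.20 in IM, adjusted p = 0.938, and -0.38 in RM, adjusted p = 0.407). Counts over the whole gene do not measure the loss of single exons, so they do not check the labels.

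Depth ran from 5332600 to 14099509 gene counts. It was 7039631 to 9054232 in CrePos IM, 13333039 to 14099509 in CreNeg IM, 5332600 to 11169706 in CrePos RM and 7238612 to 8583265 in CreNeg RM. CreNeg IM was thus the deepest group without overlap, and the part of depth in its comparisons was not tested. Of the reads assigned to genes or falling outside exons, the non-exonic share was 59.2 to 69.8% in CrePos IM, 38.5 to 44.2% in CreNeg IM, 55.1 to 72.7% in CrePos RM and 58.1 to 66.8% in CreNeg RM. The nuclear RNA Malat1 took 4.34 to 4.57% of gene counts in CrePos IM, 0.862 to 1.68% in CreNeg IM, 3.50 to 4.45% in CrePos RM and 2.07 to 3.76% in CreNeg RM, so CreNeg IM stood apart from the other 3 groups on both measures. Per the file names, IM libraries ran in lanes 5 and 7 and RM libraries in lanes 6 and 8. Lane and cell type therefore cannot be told apart, while each lane held both genotypes. The sorts were checked against their markers by the edgeR test. Of 15 interstitial macrophage markers 12 were higher in CrePos IM than in CrePos RM and 11 in CreNeg IM than in CreNeg RM. Of 14 nonclassical monocyte markers 9 and 10 were lower in these comparisons. Markers also differed by genotype. Interstitial macrophage markers summed to 13951 to 18630 CPM in CrePos IM, against 23794 to 27071 CPM in CreNeg IM. Nonclassical monocyte markers summed to 3994 (RM661) to 8440 CPM in CrePos RM, against 9506 to 15414 CPM in CreNeg RM. Their median log2 fold changes were -0.75 and -0.89, beside 0.07 and -0.10 over all genes. The part of this in the genotype comparisons was not tested. Alveolar macrophage markers (10 genes, none at 0 in any group) also moved with cell type. They summed to 467 to 865 CPM in CrePos IM, 870 to 1041 CPM in CreNeg IM, 206 to 326 CPM in CrePos RM and 360 to 613 CPM in CreNeg RM. IM over RM, their median log2 fold change was 2.25 in CrePos (1 passed as higher, 1 as lower) and 4.34 in CreNeg (4 higher, 1 lower). Their part in the members' differences between cell types was not tested.

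RM libraries differed among themselves in which members they held at all. RM649 and RM650 of CrePos RM had counts for 21 and 24 of the 35 members, whereas RM661, the third library of that group, had counts for all 35. CreNeg RM libraries had counts for 27 (RM648), 35 (RM657) and 34 (RM659), and IM libraries for 34 or 35. The same libraries lacked genes in general. Of all 14254 genes tested, 71.8% had a count in RM649, 80.7% in RM650 and 83.6% in RM648, against 98.8% in RM661, 92.9% in RM657 and 92.1% in RM659. The members' shares in RM649, RM650 and RM648 were 60%, 68.6% and 77.1%, and whether they were missing more often than other genes was not tested. Thinned to the gene counts of the shallowest library, RM661 would have held 34.5 members and RM648 27.0 on average. Thinning covers counting error only and treats amplified reads as separate molecules, so it does not adjust for how many molecules each library captured. Both role classes were affected: 10 of the 22 mitotic and 4 of the 13 replication members were at 0 in RM649, 9 and 2 in RM650, and 6 and 2 in RM648, and the difference between the classes was not tested. RM649 held 1 count in all for the 6 mitotic cyclin, Cdk1 and APC/C genes and 4 counts for the 6 checkpoint and kinase genes, yet 61.9 CPM of Kif11 and 100.5 CPM of Top2a. RM661 also had the highest sum of 15 endothelial markers, 10432 CPM, against 5374 and 4727 CPM in the other two CrePos RM libraries and 1127 to 3562 CPM in CreNeg RM, with no endothelial marker at 0 in any group. Classical monocyte markers (8 genes, none at 0 in any group) summed to 329 to 991 CPM in CrePos RM and to 152, 5929 and 2908 CPM in CreNeg RM, with the low value in RM648. The part of either cell type in the members' counts was not tested. The heatmap of levels by library shows this pattern.

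Summed over the 35 members, the set took 0.142% of gene counts on average in CrePos IM, 0.115% in CreNeg IM, 0.0660% in CrePos RM and 0.0665% in CreNeg RM. The sums were 1499, 1085 and 1756 CPM in CrePos IM, 957, 1112 and 1507 CPM in CreNeg IM, 658, 639.9 and 516 CPM in CrePos RM and 638, 803 and 641 CPM in CreNeg RM. Every IM library lay above every RM library, and the genotypes overlapped within each cell type. Mki67 alone made up much of this: without it the means were 933 ± 259 CPM in CrePos IM, 924 ± 223 CPM in CreNeg IM, 497 ± 106 CPM in CrePos RM and 593 ± 72.4 CPM in CreNeg RM (SD, n = 3 each). For 27 of the 35 members both IM group means exceeded both RM group means, and for 1 member, Kif23, the reverse held. CreNeg IM had the highest group mean of 10 of the 13 replication members and CrePos IM that of 13 of the 22 mitotic members, while CrePos RM had the lowest mean of 23 members. The shares of all genes with these orders of group means were not counted. RM649 and RM650 of CrePos RM had counts for fewer genes in general.

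**Figure D1:**
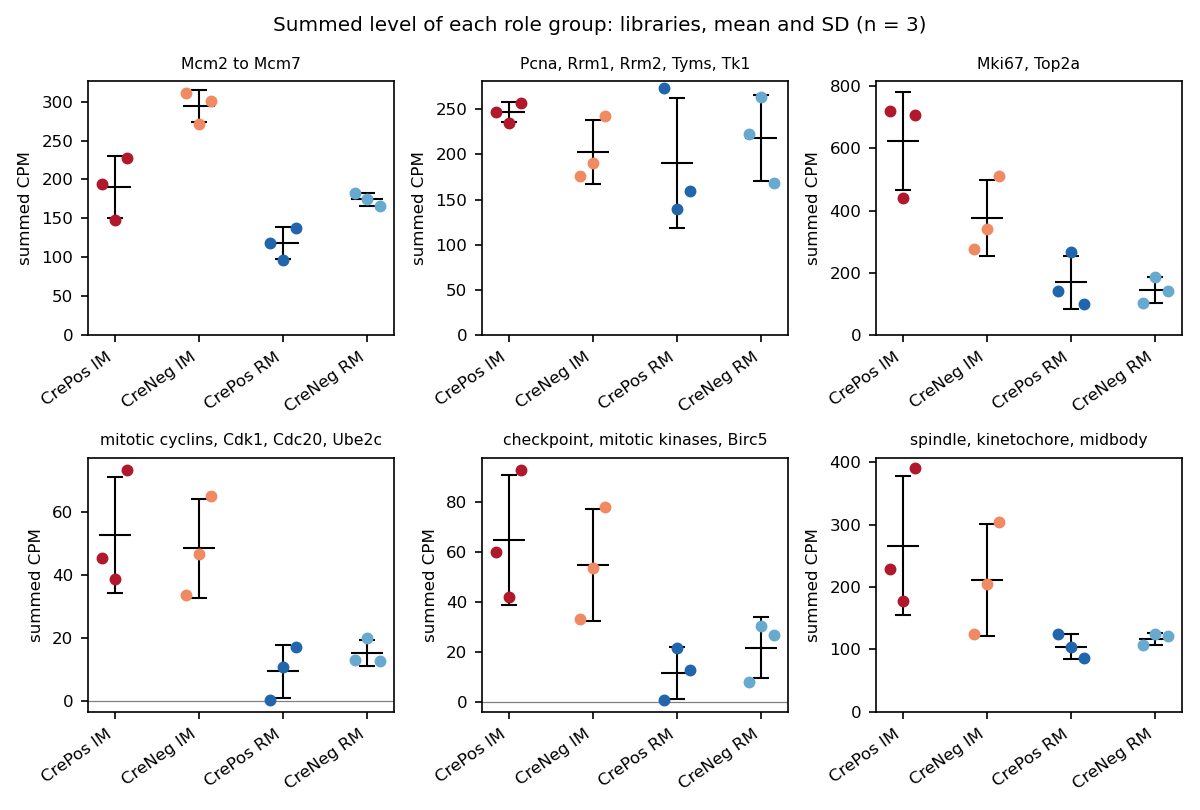
Summed CPM of the members of each role group in each library (points) with the group mean and SD (n = 3), groups from left to right CrePos IM, CreNeg IM, CrePos RM and CreNeg RM. MCM sums do not overlap between genotypes in either cell type, at 148 to 227 CPM in CrePos IM against 272 to 311 CPM in CreNeg IM.

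The comparison of macrophages with monocytes asks whether the set differs between the sorted cell types. In CrePos animals 33 of 35 members had a log2 fold change above 0 (IM over RM), with a median of 1.83, while 55.5% of all 14254 genes tested lay above 0 and their median was 0.14. One member passed the edgeR test at an adjusted p under 0.05, Mki67, which was higher in IM; over all genes 3.22% passed as higher and 1.35% as lower. In CreNeg animals 31 of 35 members lay above 0 with a median of 1.29, against 52.5% and 0.06 over all genes. Here too 1 member passed, Tyms, and it was lower in IM, where 2.81% of all genes passed as higher and 4.67% as lower. Libraries did not overlap for 17 members higher and 0 lower in CrePos IM against CrePos RM (16.0% and 6.25% of all genes), and for 14 higher and 2 lower in CreNeg IM against CreNeg RM (18.6% and 17.2% of all genes).

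The members' excess in the CreNeg comparison was not kept with the non-exonic share as a covariate. Their median in CreNeg IM against CreNeg RM became -0.51, with 15 of 35 above 0 and none past the test. That share was 38.5 to 44.2% in CreNeg IM and 58.1 to 66.8% in CreNeg RM. Without overlap, its part cannot be told apart from that of cell type. All genes moved the same way, to a median of -0.34 with 38.3% above 0. By contrast, in CrePos IM against CrePos RM, whose libraries had similar non-exonic shares, the members' median was 1.88 with 34 above 0, against 0.25 and 59.6% over all genes. The counts past the test in the CrePos comparison also depended on which RM libraries were kept. Without RM661, 11 members passed as higher in IM, where 8.2% of all genes passed as higher. They were Aurka, Birc5, Cdk1, Cenpf, Kif20a, Mki67, Plk1, Prc1, Rrm1, Tpx2 and Ube2c. That fit keeps RM649 and RM650 as the CrePos RM libraries, which had 14 and 11 members at 0. Aurka, Cdk1, Kif20a, Plk1 and Ube2c had no count in either. Leaving out RM649 and RM650 leaves RM661 as the only CrePos RM library, which is then assumed to vary like the libraries of other groups. In that fit 35 of 35 members lay above 0 with a median of 1.48, against 51.5% and 0.03 over all genes, and 1 passed as higher, against 2.52%. DESeq2 called 7 members in the CrePos comparison, all higher in IM, where it called 5.83% of genes as higher. In the CreNeg comparison it called 3 as higher and 1 as lower, against 6.18% and 6.46% of genes.

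**Figure D2:**
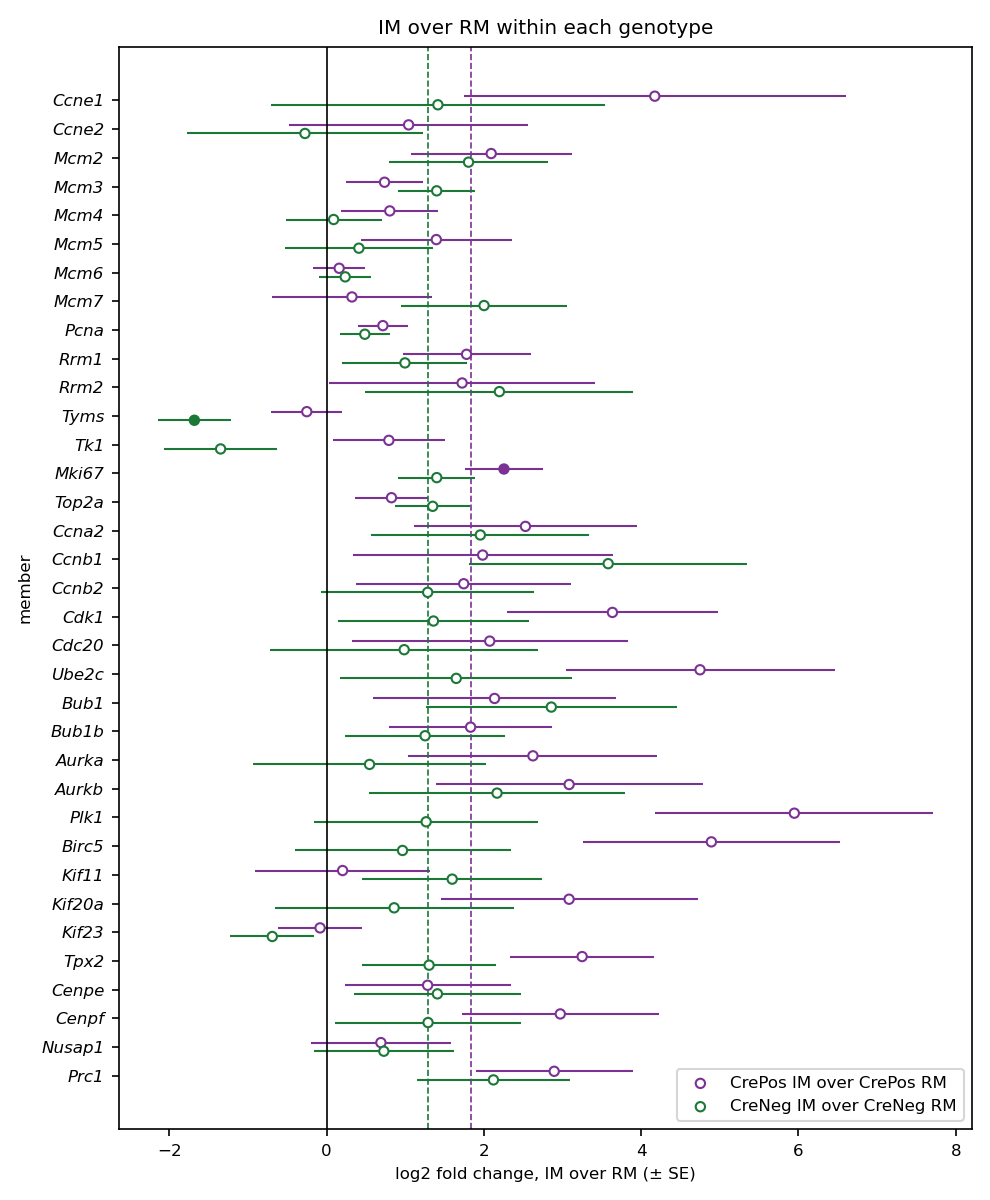
Log2 fold change of IM over RM with its standard error for the 35 members, in CrePos (purple) and CreNeg animals (green), from the fit over 12 libraries. Filled points passed the adjusted p of 0.05 (Mki67 in CrePos, Tyms in CreNeg) and dashed lines mark the medians, 1.83 and 1.29. The fitted values of Plk1 and Ccne1 in CrePos rest on 3 and 2 counts in RM.

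Mki67 (chr7:135689784-135716361) encodes the coat protein of mitotic chromosomes that is used as a proliferation marker. It had 624, 377 and 539.8 CPM in CrePos IM, 218, 249 and 336 CPM in CreNeg IM, 40.4, 222 and 60.8 CPM in CrePos RM and 69.5, 129 and 106 CPM in CreNeg RM. The IM libraries lay above the RM libraries in both genotypes, with CrePos IM highest. Mki67 was 4.77-fold higher in CrePos IM than in CrePos RM (log2 2.25, SE 0.50001, edgeR adjusted p = 0.0155). That call was lost without IM649 (adjusted p = 0.0651), without IM661 (0.0610), with the 6 libraries fitted alone (0.126) and with no filter on low counts (0.0656), and it held in the other 17 of 21 alternatives. In CreNeg IM against CreNeg RM the log2 fold change was 1.40 ± 0.487 (adjusted p = 0.103). Per length, Mki67 had 51.0, 26.6, 10.7 and 10.1 RPKM in CrePos IM, CreNeg IM, CrePos RM and CreNeg RM.

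Tyms (chr5:30058202-30073617) encodes thymidylate synthase, which makes the thymidine precursor of DNA. It was 1 of 4 members below 0 in CreNeg IM against CreNeg RM, with 90.4, 107 and 87.3 CPM in CrePos IM, 40.4, 9.81 and 35.2 CPM in CreNeg IM, 186, 67.7 and 85.7 CPM in CrePos RM and 106, 92.6 and 75.0 CPM in CreNeg RM. The CreNeg IM libraries were the only low ones. Tyms was lower in CreNeg IM than in CreNeg RM (log2 -1.68 ± 0.466, adjusted p = 0.0384). The call held in 7 of 21 alternatives: it was kept when any CrePos RM library was left out, lost when any of the other 9 libraries was left out (adjusted p 0.0519 to 0.157), and lost with the non-exonic share as a covariate (log2 -0.76, adjusted p = 0.825). The non-exonic share, lowest in CreNeg IM, moved with this result, and a Tyms pseudogene, Tyms-ps, is annotated, so reads may be split between copies. Tk1 (thymidine kinase), the salvage counterpart, had 24.9, 28.8 and 37.6 CPM in CrePos IM, 10.3, 3.62 and 14.5 CPM in CreNeg IM, 23.6, 24.2 and 5.06 CPM in CrePos RM and 34.2, 29.5 and 8.61 CPM in CreNeg RM. CreNeg IM was again the lowest group, but its range overlapped both RM groups (log2 -1.35 against CreNeg RM, adjusted p = 0.328).

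**Figure D3:**
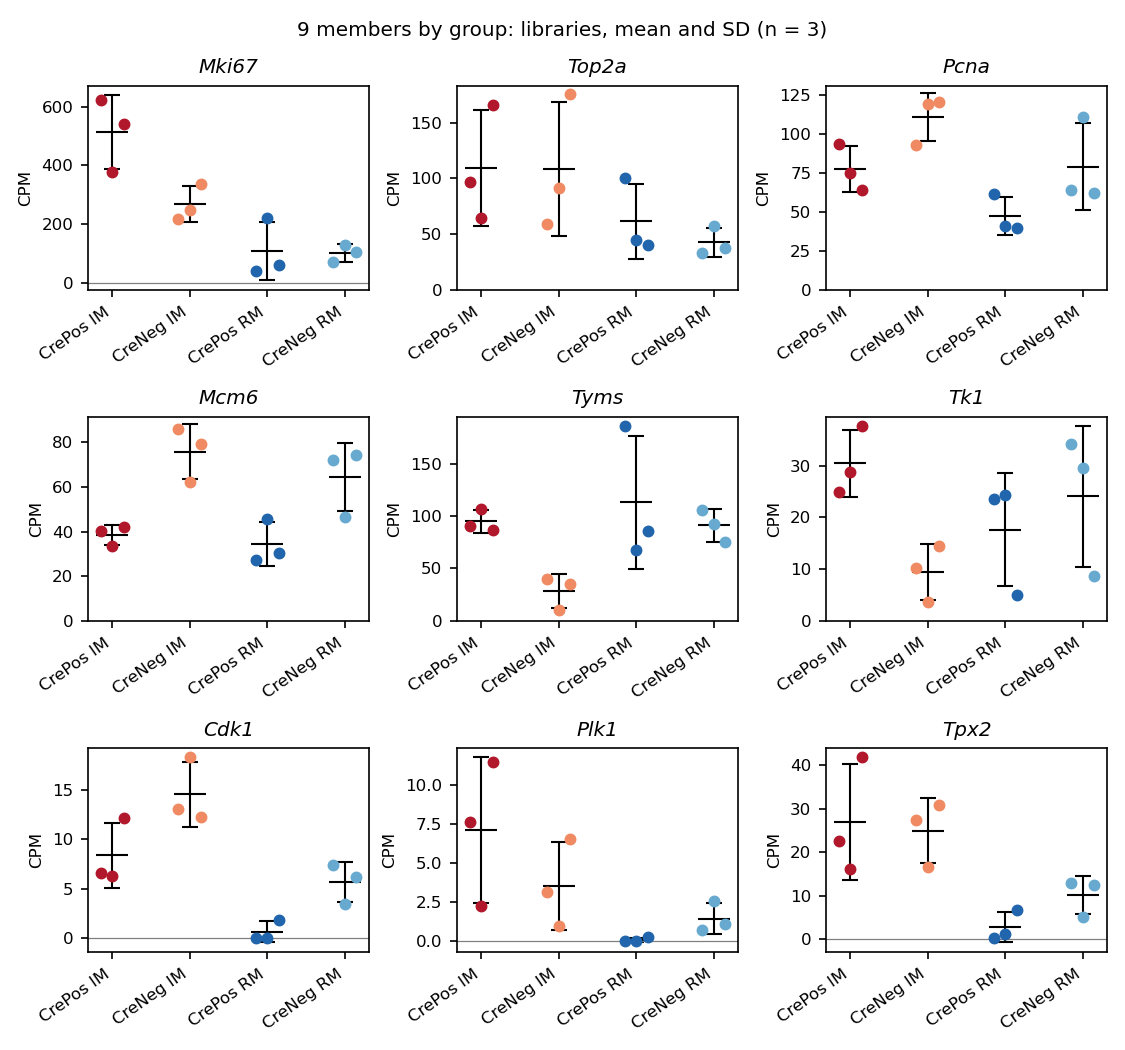
CPM of 9 members in each library (points) with the group mean and SD (n = 3), groups from left to right CrePos IM, CreNeg IM, CrePos RM and CreNeg RM. Mki67 is highest in CrePos IM, Tyms is low in CreNeg IM alone, and Mcm6 is lower in CrePos than in CreNeg libraries of both cell types.

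Several other mitotic members had few or no counts in CrePos RM, where a fold change is large by construction. Cdk1, the kinase that drives entry into mitosis, had 6.57, 6.32 and 12.2 CPM in CrePos IM, 13.1, 18.3 and 12.2 CPM in CreNeg IM, 0, 0 and 1.86 CPM in CrePos RM and 7.38, 3.43 and 6.19 CPM in CreNeg RM. Both of its zeros lay in RM649 and RM650, and the groups did not overlap in either comparison of cell types (CrePos log2 3.63 ± 1.34, adjusted p = 0.171; CreNeg 1.36 ± 1.21, adjusted p = 0.632). Plk1, the polo kinase of mitosis, had 7.67, 2.24 and 11.5 CPM in CrePos IM, 3.14, 0.959 and 6.56 CPM in CreNeg IM, 0, 0 and 0.266 CPM in CrePos RM and 0.738, 2.57 and 1.09 CPM in CreNeg RM. The CrePos RM value rests on 3 counts in RM661, so no fold is given (adjusted p = 0.0714 for CrePos IM against CrePos RM).
Tpx2, which targets Aurora A to the spindle, had 22.6, 16.2 and 41.8 CPM in CrePos IM, 27.5, 16.5 and 30.9 CPM in CreNeg IM, 0.330, 1.18 and 6.75 CPM in CrePos RM and 12.8, 5.02 and 12.5 CPM in CreNeg RM. Its IM libraries lay above its RM libraries in both genotypes, and it came nearest to the threshold after Mki67 (CrePos log2 3.25 ± 0.917, adjusted p = 0.0565). Birc5 (survivin), a subunit of the chromosomal passenger complex, averaged 10.6 ± 3.90 CPM in CrePos IM, 8.84 ± 4.49 CPM in CreNeg IM, 0.321 ± 0.422 CPM in CrePos RM and 4.51 ± 4.25 CPM in CreNeg RM (SD, n = 3 each; 10 counts in CrePos RM, adjusted p = 0.119 in CrePos). Prc1, which bundles the microtubules of the central spindle, averaged 26.3 ± 6.75 CPM in CrePos IM, 26.3 ± 14.03 CPM in CreNeg IM, 3.45 ± 4.77 CPM in CrePos RM and 6.03 ± 3.96 CPM in CreNeg RM, with no overlap between cell types in either genotype (CrePos log2 2.89, adjusted p = 0.136).

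The mitotic cyclins were scarce even in macrophages. Ccna2, the cyclin of S phase and G2, averaged 18.1 ± 6.19 CPM in CrePos IM, 13.5 ± 6.58 CPM in CreNeg IM, 3.09 ± 3.82 CPM in CrePos RM and 3.46 ± 3.76 CPM in CreNeg RM. Ccnb2, a B-type cyclin, averaged 11.7 ± 3.16 CPM in CrePos IM, 5.04 ± 2.32 CPM in CreNeg IM, 3.48 ± 3.96 CPM in CrePos RM and 2.07 ± 1.91 CPM in CreNeg RM. Neither passed the test in any comparison. Annotated pseudogenes (Ccnb1-ps, Ccnb2-ps) and, for Ccna2, exons shared on the opposite strand with Exosc9 (12.5% of its exon bases) leave the source of some reads uncertain, since the sources used here do not give the strand setting of the counting. The same holds for Kif20a with Cdc23 (29.3%), Ube2c with Tnnc2 (22.8%), Ccne2 with Ints8 (17.4%) and Prc1 with Rccd1 (11.1%).

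The checkpoint kinase Bub1 averaged 7.92 ± 2.53 CPM in CrePos IM, 7.21 ± 3.78 CPM in CreNeg IM, 1.79 ± 2.32 CPM in CrePos RM and 0.977 ± 1.21 CPM in CreNeg RM, and its partner Bub1b averaged 28.8 ± 14.6, 22.9 ± 6.12, 8.08 ± 8.56 and 9.61 ± 5.32 CPM in the same order of groups. IM and RM libraries of Bub1 did not overlap in either genotype. Cenpf, a kinetochore protein of G2 and M, had 67.2, 57.5 and 102 CPM in CrePos IM, 29.3, 27.7 and 57.9 CPM in CreNeg IM, 0.165, 1.18 and 27.1 CPM in CrePos RM and 0.590, 25.7 and 20.6 CPM in CreNeg RM. The low RM values were those of RM649, RM650 and RM648. Cenpe, the kinetochore motor, averaged 55.7 ± 19.6 CPM in CrePos IM, 30.6 ± 25.2 CPM in CreNeg IM, 22.9 ± 21.1 CPM in CrePos RM and 11.5 ± 10.1 CPM in CreNeg RM, with overlap throughout. Kif23, a motor of the midbody, differed from the other spindle members in having its highest mean in CreNeg RM: 31.1 ± 15.9 CPM in CrePos IM, 28.5 ± 11.2 CPM in CreNeg IM, 33.0 ± 18.96 CPM in CrePos RM and 46.1 ± 6.36 CPM in CreNeg RM, and CreNeg IM lay below CreNeg RM without overlap (log2 -0.69, adjusted p = 0.559). Top2a, the topoisomerase that untangles sister chromatids, averaged 109 ± 52.0 CPM in CrePos IM, 109 ± 60.1 CPM in CreNeg IM, 61.6 ± 33.7 CPM in CrePos RM and 42.6 ± 13.05 CPM in CreNeg RM (CreNeg log2 1.35, adjusted p = 0.105).

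The comparison of CrePos with CreNeg cells within a cell type asks what the deletion changed. By the edgeR test none of the 35 members passed in either cell type, where 0.239% of all genes passed as higher and 0.0491% as lower in CrePos IM, and 0.0842% as higher and 0.337% as lower in CrePos RM. At an unadjusted p under 0.05, with no share of all genes counted at that level, 3 members passed in IM and 5 in RM. DESeq2 called 1 member in each, Tyms as higher in IM (adjusted p = 0.0336; 2.1% of genes called as higher) and Cdk1 as lower in RM (adjusted p = 0.0481; 2.87% called as lower). With the 6 IM libraries fitted alone 3 passed, Mki67 and Tyms as higher and Mcm6 as lower, where 4.05% and 2.96% of all genes passed in these directions. Without RM661, 3 members passed as lower in CrePos RM (Cdk1, Rrm1 and Tpx2), where 3.37% of all genes did. Cdk1 had no count in the CrePos RM libraries kept in that fit. The test of whether the deletion effect differed between IM and RM called none of the 35 members and 0% of all genes. DESeq2 called none of the 35 for this difference, beside 70 genes higher and 42 lower over all genes. At an unadjusted p under 0.05 there were 2 members, again with no share of all genes counted at that level. In that difference 25 of 35 members lay above 0 (IM minus RM) with a median of 0.77, against 56.7% and 0.19 over all genes.

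In IM the members did not share a direction: 17 of 35 members lay above 0, the median log2 fold change was -0.003 and 53.2% of all genes lay above 0. By role, 3 of 13 replication members and 14 of 22 mitotic members lay above 0, and the difference between the roles was not tested. In RM 10 of 35 lay above 0 with a median of -0.74, against 45.6% and -0.10 over all genes. Libraries of the genotypes did not overlap for 4 members higher (Ccnb2, Mki67, Tk1 and Tyms) and 3 lower (Cdk1, Mcm6 and Mcm7) in CrePos IM, where 16.2% and 13.4% of all genes did not overlap. In CrePos RM they did not overlap for 0 higher and 7 lower (Ccne2, Cdk1, Mcm4, Mcm5, Mcm6, Pcna and Plk1), where 5.9% and 11.4% did not. The lanes disagreed for much of the set. In IM the median difference in log2(CPM + 0.5) was -0.68 with 8 members above 0 in lane 5 (1 CrePos and 2 CreNeg libraries) and 0.9999 with 27 above 0 in lane 7 (2 CrePos and 1 CreNeg library), and 19 members took opposite signs in the lanes. In RM it was -1.18 with 9 above 0 in lane 6 and -0.37 with 17 above 0 in lane 8. With the non-exonic share, which differed between the IM genotypes without overlap, as a covariate the IM median was 1.27 with 25 above 0, against 0.52 and 63.0% over all genes. The part of RNA quality in these differences was not tested.

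**Figure D4:**
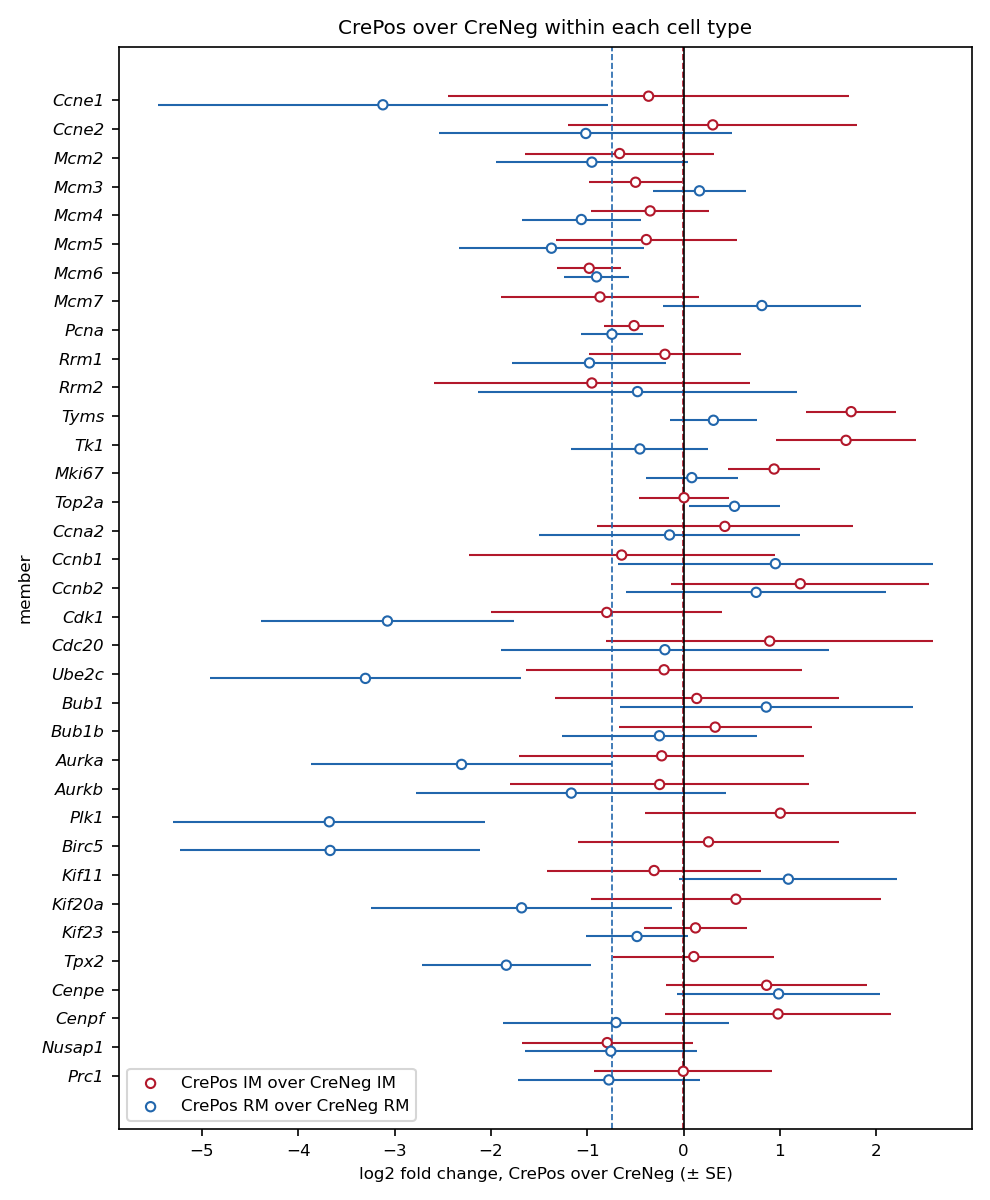
Log2 fold change of CrePos over CreNeg with its standard error for the 35 members, in IM (red) and RM (blue), from the fit over 12 libraries. No point passed the adjusted p of 0.05, dashed lines mark the medians (-0.003 in IM and -0.74 in RM), and the RM values of Plk1 and Ccne1 rest on 3 and 2 counts in CrePos RM.

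The MCM helicase, which loads onto origins in G1 and unwinds DNA in S phase, has 6 subunits, which summed to 194, 148 and 227 CPM in CrePos IM, against 311, 272 and 300.2 CPM in CreNeg IM, and to 119, 97.0 and 138 CPM in CrePos RM, against 183, 174 and 166 CPM in CreNeg RM. The genotypes did not overlap in either cell type. In IM all 6 subunits had a log2 fold change below 0 (-0.98 to -0.35), and in RM 4 of 6, with Mcm3 at 0.16 and Mcm7 at 0.81. No subunit passed the test. The IM signs were the same under each scaling and with each library left out, but with the non-exonic share as a covariate only 3 of 6 lay below 0.
Mcm6 (chr1:128331590-128359664) had the smallest adjusted p of the 6 in both cell types. It had 40.2, 33.4 and 41.8 CPM in CrePos IM, against 86.1, 62.1 and 79.3 CPM in CreNeg IM (log2 -0.98 ± 0.334, adjusted p = 0.278), and 27.2, 45.6 and 30.5 CPM in CrePos RM, against 72.0, 46.7 and 74.5 CPM in CreNeg RM (log2 -0.90 ± 0.335, adjusted p = 0.195). CrePos libraries lay below CreNeg libraries in both cell types, by a narrow margin in RM, and the difference was below 0 in each lane (-1.06 and -1.06 in IM lanes 5 and 7, -0.37 and -1.31 in RM lanes 6 and 8). It passed in 1 of 21 alternatives for IM and in 0 of 21 for RM. Mcm3 averaged 59.0 ± 13.03 CPM in CrePos IM against 83.3 ± 8.96 CPM in CreNeg IM, and 35.4 ± 24.3 CPM in CrePos RM against 31.6 ± 3.49 CPM in CreNeg RM. Mcm4 averaged 33.1 ± 7.92 CPM in CrePos IM against 42.1 ± 8.83 CPM in CreNeg IM, and 18.9 ± 14.2 CPM in CrePos RM against 39.5 ± 9.95 CPM in CreNeg RM. The RM spread of both came from single libraries, 8.52 CPM of Mcm3 in RM650 and 2.47 CPM of Mcm4 in RM649. Mcm7 (21.6 ± 9.12 CPM in CrePos IM, 39.3 ± 4.38 CPM in CreNeg IM) hosts miRNA genes and shares bases with Ap4m1 and Cops6, so part of its reads may belong elsewhere.

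Pcna, the sliding clamp of the replication fork, had 93.6, 74.6 and 64.1 CPM in CrePos IM, against 92.7, 119 and 120.1 CPM in CreNeg IM, and 61.5, 40.6 and 39.5 CPM in CrePos RM, against 63.7, 111 and 62.1 CPM in CreNeg RM. The RM genotypes did not overlap, with 61.5 and 62.1 CPM as neighbours, and the IM genotypes did (log2 -0.51, adjusted p = 0.700 in IM; -0.74, adjusted p = 0.263 in RM). Per length Pcna was the most abundant member in CreNeg IM, at 46.1 RPKM, and in both RM groups, at 19.7 RPKM in CrePos RM and 32.9 RPKM in CreNeg RM, whereas Mki67 led in CrePos IM. Reads of Pcna may be shared with its pseudogenes Pcna-ps1 and Pcna-ps2. Rrm1, the large subunit of ribonucleotide reductase, averaged 37.8 ± 20.1 CPM in CrePos IM against 43.2 ± 14.9 CPM in CreNeg IM, and 10.9 ± 15.1 CPM in CrePos RM against 21.6 ± 3.17 CPM in CreNeg RM, where RM661 alone (28.3 CPM) lay above the CreNeg libraries.

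Tyms and Tk1 ran the other way in IM. Tyms averaged 95.0 ± 10.8 CPM in CrePos IM against 28.5 ± 16.3 CPM in CreNeg IM (3.34-fold, log2 1.74 ± 0.467, adjusted p = 0.142), and 113 ± 63.9 CPM in CrePos RM against 91.3 ± 15.8 CPM in CreNeg RM (log2 0.31, adjusted p = 0.789). The IM difference was 2.49 in lane 5 and 1.13 in lane 7, and it passed in 4 of 21 alternatives. It was 0.65 (adjusted p = 0.790) with the non-exonic share as a covariate and 1.26 (adjusted p = 0.499) without IM659, within a range of 0.65 to 2.08 over the alternatives. Tk1 averaged 30.5 ± 6.49 CPM in CrePos IM against 9.46 ± 5.48 CPM in CreNeg IM (3.22-fold, log2 1.69 ± 0.726, adjusted p = 0.437), with 1.90 and 1.53 in the lanes. The test of the difference between cell types did not pass for either (Tyms log2 1.43, adjusted p = 0.554; Tk1 2.14, adjusted p = 0.561). Mki67 averaged 513 ± 125 CPM in CrePos IM against 268 ± 60.9 CPM in CreNeg IM without overlap (log2 0.94 ± 0.481, adjusted p = 0.576), at 0.38 in lane 5 and 1.41 in lane 7, and 108 ± 99.2 CPM in CrePos RM against 101 ± 29.9 CPM in CreNeg RM.

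The G1/S cyclins were at the edge of detection. Ccne2 averaged 2.61 ± 1.46 CPM in CrePos IM, 2.11 ± 1.63 CPM in CreNeg IM, 1.25 ± 1.11 CPM in CrePos RM and 2.56 ± 0.316 CPM in CreNeg RM. Ccne1 had 5, 5 and 23 counts in CrePos IM, 0, 45 and 29 counts in CreNeg IM, 0, 0 and 2 counts in CrePos RM and 0, 17 and 0 counts in CreNeg RM, too few for a fold in RM.

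In CrePos RM against CreNeg RM the members with the lowest fold changes had few counts in CrePos RM. Cdk1 lay below CreNeg RM without overlap (log2 -3.07 ± 1.31, adjusted p = 0.262) and stayed below 0 in both lanes, at -3.36 in lane 6 and -2.86 in lane 8. Birc5 (10 counts in CrePos RM, adjusted p = 0.258), Ube2c, the ubiquitin-conjugating enzyme of the anaphase-promoting complex (7 counts, adjusted p = 0.330), and Tpx2 (log2 -1.84, adjusted p = 0.315) overlapped CreNeg RM. Birc5 was at 0 in RM648, a CreNeg library, and its lanes took opposite signs, -3.82 in lane 6 and 0.89 in lane 8. With RM661 as the only CrePos RM library, the members' median against CreNeg RM was -0.26 with 10 of 35 above 0, against 48.8% of all genes. Among all 35 members the smallest adjusted p was 0.142 in IM (Tyms) and 0.195 in RM (Mcm6).

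Other genes of the same pathways were counted from lists written with earlier results of these data known. Of 51 other DNA replication genes, none passed in either genotype comparison. IM over RM, 1 passed as lower in CreNeg (Rpa2, a subunit of the single-strand binding protein, 6.80 ± 2.53 CPM in CreNeg IM against 39.2 ± 15.1 CPM in CreNeg RM, adjusted p = 0.0463) and 1 as higher in CrePos (Pola1, the primase-bound polymerase, 63.1 ± 7.31 CPM in CrePos IM against 15.8 ± 0.875 CPM in CrePos RM, adjusted p = 0.0190). The list's medians, IM over RM, were 0.83 in CrePos and 0.42 in CreNeg, with 38 and 34 of 51 above 0, beside 0.14 and 0.06 with 55.5% and 52.5% above 0 over all genes. Single calls in lists of this size are near the shares of all genes called (3.22% higher and 1.35% lower in CrePos, 2.81% and 4.67% in CreNeg). Its most abundant genes, Atad2 and Orc3, passed nowhere. Of 52 other mitosis genes tested, none passed by genotype. One passed as higher in CrePos IM than in CrePos RM (Ckap2l, 32.3 ± 14.2 against 2.20 ± 2.86 CPM, adjusted p = 0.0493) and 2 as higher in CreNeg IM than in CreNeg RM: Stmn1 (stathmin, 77.9 ± 29.3 against 14.8 ± 6.96 CPM, adjusted p = 0.00683) and Kif2c, which had no count in CreNeg RM (7.35 ± 5.62 CPM in CreNeg IM, adjusted p = 0.0326). The calls in CreNeg come from groups whose non-exonic shares did not overlap, and they were not followed with that share as a covariate. The medians of the other mitosis genes were 1.95 with 45 of 52 above 0 in CrePos and 1.05 with 43 of 52 above 0 in CreNeg. Smc4 and Lmnb1 were the most abundant and passed nowhere, although Lmnb1 came near in CrePos RM against CreNeg RM (26.0 ± 9.65 against 82.8 ± 16.7 CPM, adjusted p = 0.0559).

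Of 39 genes that control exit from G1, 4 (10.3%, against 4.67% of all genes) passed as lower in CreNeg IM than in CreNeg RM: Btg1, an antiproliferative factor (443 ± 32.1 CPM in CreNeg IM against 1561 ± 483 CPM in CreNeg RM, adjusted p = 0.00509), Rb1, the retinoblastoma protein that restrains E2F (108 ± 16.98 against 288 ± 55.0 CPM, adjusted p = 0.00926), Cdkn1b, the CDK inhibitor p27 (40.3 ± 9.54 against 122 ± 49.0 CPM, adjusted p = 0.0120) and Ccnd3, a D-type cyclin (32.5 ± 1.74 against 77.0 ± 21.02 CPM, adjusted p = 0.0479). Btg2, a relative of Btg1, was the only one of the 39 that passed as higher in IM in both genotypes (649.7 ± 216 CPM in CrePos IM against 318 ± 70.9 CPM in CrePos RM, adjusted p = 0.0307; 836 ± 101 CPM in CreNeg IM against 445 ± 47.8 CPM in CreNeg RM, adjusted p = 0.0428), and Ccnd3 passed as lower in CrePos IM than in CrePos RM (34.8 ± 6.49 against 92.1 ± 40.6 CPM, adjusted p = 0.0370). The CreNeg calls come from groups whose non-exonic shares did not overlap. With that share as a covariate 15 of all 14254 genes passed as higher and 13 as lower, and these genes were not followed there. None of the 39 passed by genotype, where the smallest adjusted p was 0.454 in IM and 0.127 in RM.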

How the data were processed

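Counts were deposited by the authors as 1 file per library, with whole numbers of reads for 26608 genes and 5 summary rows, neither normalized nor filtered. A low-input stranded kit for total RNA was used, per the labels' protocols; cutadapt 1.12, TopHat2 2.1.1, HTSeq 0.6.0 and GRCm38 (mm10) are named in the submitters' processing notes. The annotation and the strand setting of the counting are unknown here. Summary rows took 45.0 to 74.1% of reads and stayed out of library sizes.

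Genes passing edgeR's filterByExpr by group (minimum count 10) numbered 14254. With TMM factors, all 12 libraries entered one robust quasi-likelihood fit of 4 group means (edgeR 4.0.16, R 4.3.3), giving 5 contrasts with p-values adjusted (Benjamini-Hochberg) over all genes and a threshold of 0.05. All adjusted p-values are from this fit unless another tool is named. The fit was also run on simulated counts. There only more abundant genes were changed and no single library was made to lack genes, so that run does not cover scarce members. CPM use TMM-scaled sizes, and RPKM divide them by GENCODE M21 exon length. Alternatives were no filter, RLE factors, library totals, DESeq2 1.42.0, the compared libraries alone, lane or non-exonic share as covariates, a replicate block, and each library left out; leaving out RM649 and RM650 together was chosen after seeing the data. Lanes were read from file names. Gene counts per library ranged from 5332600 to 14099509.

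Members and lists were chosen with earlier results of these data known. Members past the test and the 3 most abundant in each role group are described in full; of other lists, up to 4 genes past the test in a contrast and the 2 most abundant are named. Cdk1, Plk1, Tpx2, Prc1, Tk1 and the other members given beside them were chosen after their values were seen. Of 205 entries in 4 pathway lists all are in the files, and of 121 entries in 12 marker lists 119 are; 7 entries were matched by an older symbol. Coordinates are of GENCODE M21 (GRCm38).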

Additional observations from a re-analysis of the deposited data

How the results depend on the processing

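Leaving out RM649 and RM650 leaves CrePos RM with RM661 alone, assumed to vary like the other groups. Counts past the test in that fit are not listed here. With other settings, the counts of members past the test changed as follows. CrePos IM against CreNeg IM gave 1 with DESeq2, beside 284 genes higher and 145 lower over all genes. With the 6 libraries alone it gave 3, beside 549 higher and 401 lower of 13566 genes. CrePos RM against CreNeg RM gave 1 with DESeq2, beside 677 genes higher and 408 lower. CreNeg IM against CreNeg RM gave 0 with RLE factors (446 genes higher and 584 lower), library totals (355 and 541) or the non-exonic covariate (15 and 13). It gave 4 with DESeq2, beside 923 genes higher and 965 lower. With the 6 libraries alone it gave 6, beside 839 higher and 1176 lower of 12861 genes. CrePos IM against CrePos RM gave 7 with DESeq2 (829 genes higher and 481 lower) or the non-exonic covariate (684 and 223). With the 6 libraries alone it gave 0 of 34 members tested, beside 179 higher and 49 lower of 12988 genes. With the non-exonic covariate the median became 1.27 in CrePos IM against CreNeg IM, and -0.51, with 15 members above 0, in CreNeg IM against CreNeg RM. Over all genes these medians were 0.52 and -0.34, with 38.3% above 0 in the second comparison. Leaving out 1 library gave 0 to 3 past in CrePos RM against CreNeg RM. The 3 came without RM661, beside 70 genes higher and 500 lower. In CreNeg IM against CreNeg RM it gave 0 to 4, with 0 without any single IM or CreNeg RM library. There 2 passed without RM649 (684 genes higher and 841 lower) and 4 without RM650 (541 and 724). In CrePos IM against CrePos RM it gave 0 to 11. There 11 passed without RM661 (1217 genes higher and 492 lower) and 2 without RM648 (512 and 187). None passed without IM649 (294 and 97) or IM661 (237 and 109). Between 11 (without IM661) and 23 (without IM660) members lay above 0 in CrePos IM against CreNeg IM, where 50.1% and 53.6% of all genes did. The median ranged from -1.46 (without RM661) to -0.32 (without RM657) in CrePos RM against CreNeg RM, from -0.39 to 0.29 in CrePos IM against CreNeg IM, and from 0.24 (without IM661) to 1.26 for the difference of the effects. Without Mki67 the summed level was 933 CPM in CrePos IM, 497 CPM in CrePos RM and 593 CPM in CreNeg RM. The causes were not tested. In CrePos RM against CreNeg RM, library totals moved the median of all genes to 0.05, beside -0.10 with TMM factors. Between scalings the sign changed for Ccna2 there, for Prc1 and Top2a in CrePos IM against CreNeg IM and for Kif11 in CrePos IM against CrePos RM. Over single members and settings, 3349 values kept direction and call, 212 moved, 52 gained a call and 18 lost one.

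Numbers that recur between IM and RM carry the same genotype in both. Deviations of same-numbered IM and RM libraries from their group means correlated at -0.065 to 0.081 over 14254 genes. Not every library correlated best with its own number. With few libraries a group and noise between small libraries, this cannot exclude that same-numbered libraries share an animal. With the replicate block, 1 member passed in CrePos IM against CreNeg IM, beside 99 higher and 82 lower of 14254 genes. In CreNeg IM against CreNeg RM 0 passed, beside 110 genes higher and 179 lower. In CrePos RM against CreNeg RM 6 members lay above 0, where 38.3% of all genes did, with a median of -0.31 over all genes. Depth limits members with few counts, above all in RM649 and RM650.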

Other observations

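Replication-dependent histone genes, which supply the chromatin of newly copied DNA are a gene group the members do not include. Summed over 60 genes they had 294, 264 and 708 CPM in CrePos IM, against 637, 869.5 and 1243 CPM in CreNeg IM, and 310.3, 492 and 482 CPM in CrePos RM, against 1086, 1034 and 637 CPM in CreNeg RM. The IM ranges overlapped by 1 library, IM661, and the RM ranges did not overlap. Of 47 histone genes tested, 47 had a log2 fold change below 0 in IM (median -1.27) and 41 in RM (median -1.36), beside medians of 0.07 and -0.10 over all genes. By edgeR's quasi-likelihood test none passed in either cell type, and the smallest adjusted p was 0.374 in IM and 0.0933 in RM. At an unadjusted p under 0.05 there were 4 histone genes in IM and 5 in RM, with no share of all genes counted at that level. The most abundant were Hist1h1e (64.7 ± 29.1 CPM in CrePos IM, 115 ± 29.6 CPM in CreNeg IM, 118 ± 65.8 CPM in CrePos RM, 279 ± 69.0 CPM in CreNeg RM) and Hist1h1c (65.6 ± 21.998, 112 ± 19.2, 118 ± 19.6 and 255 ± 77.9 CPM in the same order of groups; SD, n = 3 each). Hist1h1c was the only histone gene past the test between cell types, lower in CreNeg IM than in CreNeg RM (log2 -1.19, adjusted p = 0.0257). Many histone genes are near-identical copies, so values of single genes are uncertain. The non-exonic share of reads was 59.2 to 69.8% in CrePos IM, against 38.5 to 44.2% in CreNeg IM, and 55.1 to 72.7% in CrePos RM, against 58.1 to 66.8% in CreNeg RM; its part in these values was not tested.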
